A study of Mus musculus with 8 samples.

Results

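Sarcomere, Z-disc and costamere genes encode the contractile units of the heart muscle cell and the structures that anchor them, and 38 of them were followed here in mouse embryos homozygous for a deletion in Atf4. They were taken by symbol from a table of 52778 features, and all 38 symbols found exactly 1 row. RNA came from ventricular heart at embryonic day 11.5, with 4 control libraries, given by the labels as wild type on C57BL/6, and 4 libraries homozygous for an Atf4 allele that lacks 7 bases of exon 3, made with CRISPR/Cas9, a frameshift allele carried in the whole embryo and not driven by a Cre or transgene. The embryos received no treatment, all 8 libraries carry batch label 1, and each library is 1 of 4 biological replicates of its genotype, per the labels. The litter and sex of the embryos are not given in the sources used here. Expression is in TPM, which corrects read numbers for the length of the transcript and the size of the library, so levels of different genes can be set side by side.

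The sarcomere is the repeating unit of the myofibril. Thick filaments of myosin pull on thin filaments of actin, tropomyosin and troponin when calcium binds troponin C, titin links the thick filament to the Z-disc, the M-band holds thick filaments together, and costameres tie the Z-disc to the cell membrane. Many of these proteins come from several genes that are used at different stages. In the mouse heart Myh7, Tnni1 and the smooth and skeletal muscle actins mark the embryonic ventricle, and Myh6 and Tnni3 take over towards birth and after it.

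Facts of the libraries bear on what follows. Atf4 itself held 105, 121, 115 and 105 TPM in control replicates 1 to 4 and 166, 164, 185 and 148 TPM in mutant replicates 1 to 4, higher in every mutant, and a gene total cannot show a deletion of 7 bases or the loss of the protein. The listed features summed to 923473 to 949762 TPM per library, and TPM keep no read depth, so the spread between the 4 libraries of a genotype is the only error available. One protocol label names cultured cortical neurons and the genotype field of the mutants reads wild type. Groups here follow the sample titles. The titles read heart, without naming the ventricle, and the tissue label was set beside markers. Of 10 ventricular markers, Myl2, the ventricular regulatory light chain, was the highest at 10631 to 11979 TPM and Tbx5 the lowest at 21.4 to 42.5 TPM. From the list of atrial markers, Myl7 held 3186 to 3849 TPM and Nppa 2283 to 3762 TPM. Whether the samples held atrial tissue was not tested. Of 9 neuronal markers, 6 stayed below 1 TPM in every library, among them Snap25, Neurod1 and Rbfox3, while Gap43 held 26.6 to 32.9 TPM, Tubb3 7.06 to 11.8 TPM and Stmn2 1.06 to 1.76 TPM.

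None of the contractile genes tested passed the threshold for a difference between the genotypes once all genes were taken into account. A gene was tested if it reached 1 TPM or more in 4 or more of the 8 libraries, which 35 of the 38 genes did. None of the 35 had an adjusted p below 0.05 in a linear model fitted with limma to log2(TPM + 1) of all 15545 genes tested, a count of 0, where 0.0386% of all genes did. The lowest adjusted p was 0.809. In simulated data a log2 change of 0.2 was recovered for 0% of the changed genes and one of 0.3 for 26.5%. The changed genes were drawn from all 15545 genes, and recovery for the 35 alone was not simulated. A count of 0 therefore does not by itself exclude changes of that size, and the 95% intervals bound the change of each gene. Log2 fold changes, mutant minus control, ran from -0.20 for Myoz2 to 0.26 for Pdlim5, with a median of -0.016 against -0.0033 over all genes tested. In 30 of the 35 the size of the change was below 0.1. The 95% interval of the change lay within 0.25 on either side of 0 for 29 genes and within 0.5 for 34.

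At an unadjusted p below 0.05, 2 genes were lower in the mutants, Tcap and Csrp3, and 1 was higher, Nebl. That is 8.57% of the 35, beside 6.1% of all genes tested (3.45% lower and 2.65% higher). The split of 2 lower and 1 higher became 4 and 2 with median-of-ratios scaling, and 4 and 0 both with quantile normalization and after rescaling without mitochondrial and haemoglobin genes. Single libraries also moved these counts. The number lower was 1 without control replicate 1, 4 without mutant replicate 1 and 0 without control replicate 3, mutant replicate 2 or mutant replicate 4. The number higher was 3 without control replicate 4, 2 without control replicate 1 or mutant replicate 3, and 0 without control replicate 2, control replicate 3, mutant replicate 1 or mutant replicate 4. The 2 genotypes stood apart with no overlap for 1 gene, Nebl, or 2.86% of the 35, beside 3.68% of all genes tested. Both shares lie near those of the whole table.

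**Figure D1:**
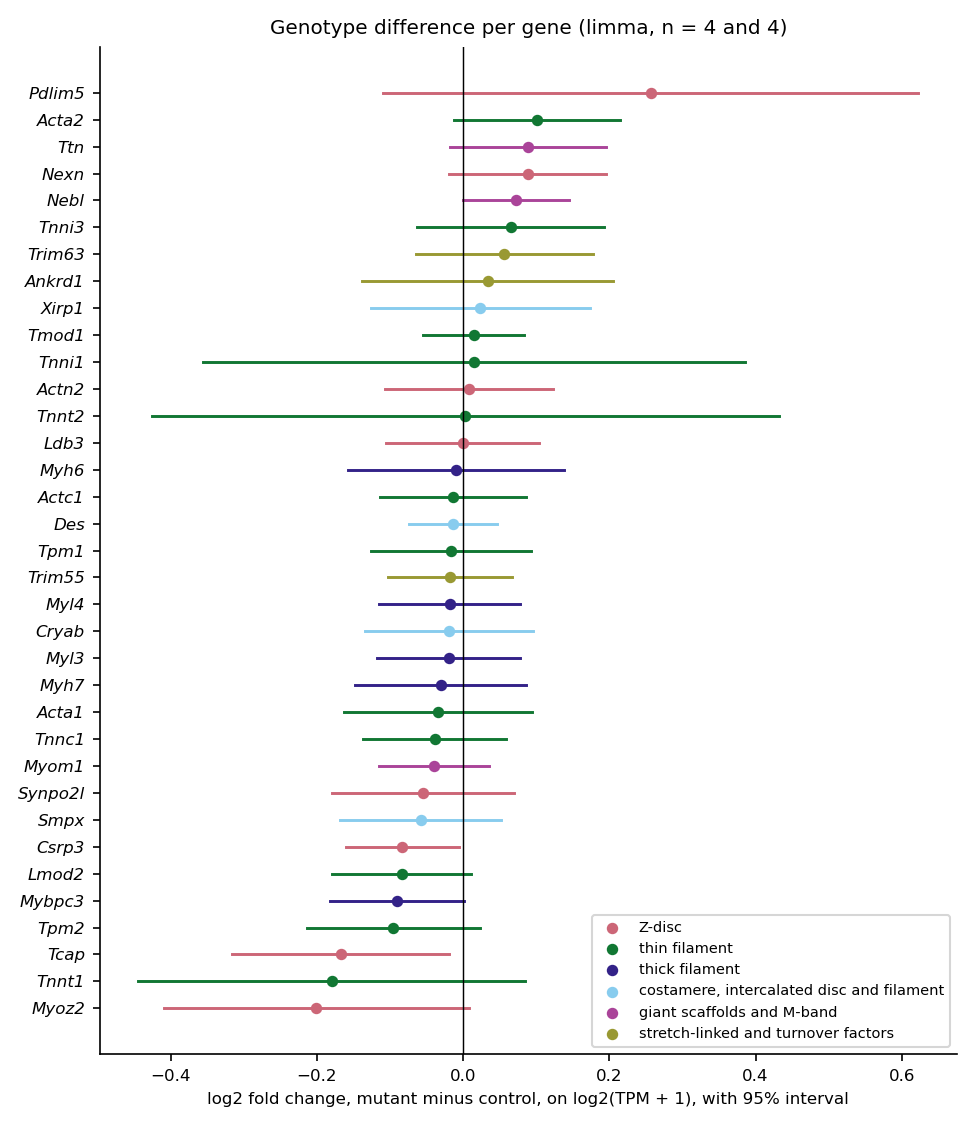
Log2 fold change, mutant minus control, of the 35 tested genes on the log2(TPM + 1) scale, with dots for the estimate and lines for its 95% interval (limma, 4 control and 4 mutant libraries), coloured by role. Most estimates sit within 0.1 of 0, and Pdlim5, Tnni1, Tnnt2 and Tnnt1 have the widest intervals.

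Most of the 38 transcripts were abundant. By mean TPM all 35 tested genes ranked within the first 1900 of the 52778 listed features. Actc1, cardiac alpha-actin, averaged 13444 TPM and ranked 2 among all listed features. Together with Actc1, 10 further genes averaged at least 1000 TPM, and 10 of the 38 stood among the 100 most abundant features. At the other end, Myom2, an M-band protein of mature muscle, held 0.0589 to 0.160 TPM, Xirp2, a partner of Xirp1 in the intercalated disc, held 0.167 to 0.390 TPM, and Neb, the giant thin filament ruler of skeletal muscle, held 0.667 to 1.07 TPM. These were the 3 genes too low to be tested. Trim63, the next in order, already averaged 74.9 TPM, so between the 3 and the other 35 lay a wide gap that both genotypes shared. As a sum, the 38 genes took 5.05% to 5.26% of the listed TPM in the controls and 4.99% to 5.21% in the mutants, ranges that overlap. In such whole-tissue samples, fewer cardiomyocytes and less RNA per cardiomyocyte cannot be told apart.

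**Figure D2:**
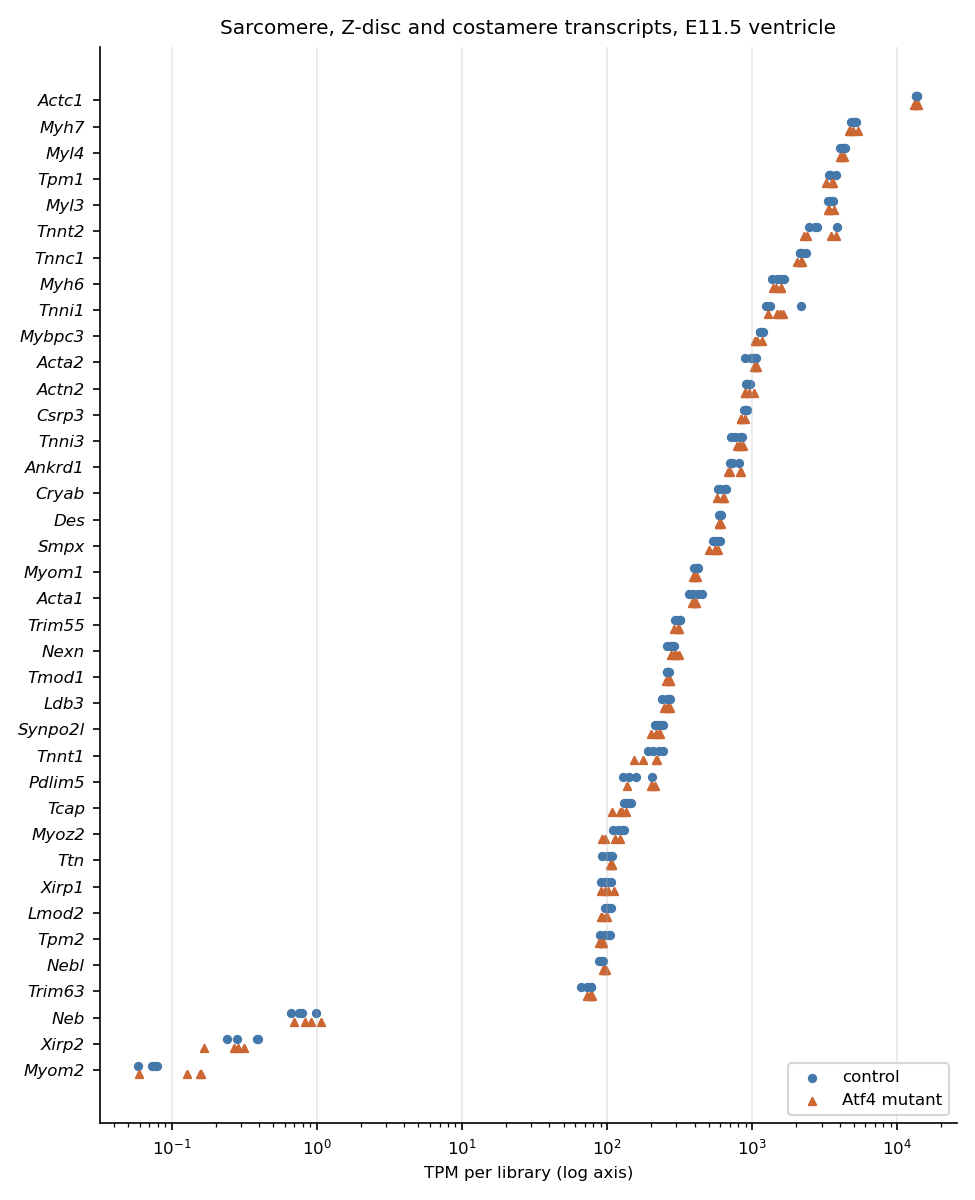
TPM of the 38 genes in each library on a log axis, ordered by mean level, with circles for the 4 control and triangles for the 4 mutant libraries. The 2 sets of points lie over each other for nearly every gene, and Neb, Xirp2 and Myom2 lie far below the rest.

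The thick filament was represented by 5 genes, all tested, and all 5 log2 fold changes were slightly below 0, from -0.090 to -0.0092, with none past the threshold. Of all genes tested, 51.8% had a change below 0. Myh7 encodes beta-myosin heavy chain, the slow motor of the embryonic ventricle (chromosome 14, bases 54970684 to 54994626, minus strand, GRCm38). It held 5192, 5002, 5054 and 4825 TPM in control replicates 1 to 4 and 5371, 4906, 4735 and 4663 TPM in mutant replicates 1 to 4. The mutants held both the highest value, in replicate 1, and the 2 lowest, in replicates 3 and 4, so the mutant range enclosed that of the controls. Myh6, for alpha-myosin heavy chain, the fast motor that dominates the adult mouse heart, lies 2666 bases away from Myh7 on the same strand (chromosome 14, bases 54941921 to 54968017). Its values were 1481, 1565, 1362 and 1655 TPM in the controls against 1583, 1454, 1397 and 1585 TPM in the mutants, and the genotypes overlapped. The log2 fold change was -0.031 for Myh7 (95% interval -0.15 to 0.087) and -0.0092 for Myh6 (95% interval -0.16 to 0.14).

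These neighbours share much of their sequence. In the longest coding transcripts of GENCODE M21 the Myh7 and Myh6 coding regions, 5805 and 5814 bases long, were 91.4% identical in a global alignment, and their longest identical run had 245 bases. It is printed here because a read that falls inside it fits both genes and how such reads were counted is not given in the sources used here. It spans coding bases 4240 to 4484 of Myh7.
Myh7 and Myh6: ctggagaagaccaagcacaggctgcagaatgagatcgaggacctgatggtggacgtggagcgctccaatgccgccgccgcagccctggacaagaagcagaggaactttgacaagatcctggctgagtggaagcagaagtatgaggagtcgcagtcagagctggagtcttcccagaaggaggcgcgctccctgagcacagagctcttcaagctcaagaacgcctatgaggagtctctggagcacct

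The other thick filament genes were Myl3, Myl4 and Mybpc3. Myl3 and Myl4, the ventricular and the embryonic atrial essential light chain, were both abundant, at 3325 to 3634 TPM and 4005 to 4386 TPM. Myl4 held 4386, 4176, 4286 and 4012 TPM in the controls against 4288, 4005, 4105 and 4249 TPM in the mutants, within 1.10-fold of each other, with a log2 fold change of -0.018 (-0.11 to 0.078). The Myl3 values lay within 1.09-fold of each other. Mybpc3, cardiac myosin-binding protein C, which tunes how myosin heads engage actin (chromosome 2, bases 91118114 to 91136516), stood at 1194, 1159.8, 1127 and 1126 TPM in the controls against 1159, 1050.0, 1071 and 1051 TPM in the mutants. Of the mutants, 3 of 4 lay below every control, while mutant replicate 1 lay inside the control range. Its log2 fold change of -0.090 (-0.18 to 0.0013) had an unadjusted p of 0.0526 and an adjusted p of 0.821 in limma.

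The thin filament was represented by 12 genes, all tested, of which 5 had a log2 fold change above 0 and 7 below it, with none past the threshold. The 3 striated and smooth muscle alpha-actins, which build the filament itself, differed widely in level, in the order Actc1, Acta2, Acta1 in every library. Actc1 (chromosome 2, bases 114047282 to 114052875) held 13650.4, 13555, 13434 and 13385 TPM in the controls against 13867, 12992, 13129 and 13543 TPM in the mutants, one of the steadiest transcripts of the set, with 95.5% of the 2982 genes of at least 50 TPM more variable within genotypes. Acta2, smooth muscle alpha-actin and the earliest actin of the heart tube (chromosome 19, bases 34240336 to 34255585), held 1060.5, 983, 893 and 1015 TPM in the controls against 1054, 1032, 1084 and 1059.9 TPM in the mutants. Mutant replicate 3 was the highest of the 8, and the other 3 mutants lay in the upper range of the controls. Acta1, skeletal muscle alpha-actin (chromosome 8, bases 123891758 to 123894775), held 449.6, 390.3, 369 and 422 TPM in the controls against 407, 398, 383 and 399.8 TPM in the mutants, which lay inside the control range. The log2 fold change was -0.014 for Actc1 (-0.11 to 0.086), 0.10 for Acta2 (-0.013 to 0.21, unadjusted p of 0.0761 and adjusted p of 0.841, limma) and -0.034 for Acta1 (-0.16 to 0.094). Without control replicate 3 that of Acta2 was 0.053.

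Although their proteins are nearly the same, the 3 actins can be told apart in the transcript. Over coding regions of 1131 bases each, Acta1 and Actc1 were 86.3% identical, Acta2 and Actc1 82.6% and Acta1 and Acta2 85.4%, and no identical run in these 3 pairs exceeded 29 bases. The first 60 coding bases of each, from the start codon, show how the differences are scattered. Capitals mark bases that differ from Actc1, 9 in Acta1 and 14 in Acta2.
Actc1: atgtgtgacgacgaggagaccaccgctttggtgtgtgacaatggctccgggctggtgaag
Acta1: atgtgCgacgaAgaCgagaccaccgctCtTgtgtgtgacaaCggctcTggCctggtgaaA
Acta2: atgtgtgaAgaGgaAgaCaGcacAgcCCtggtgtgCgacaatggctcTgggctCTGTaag

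Acta2 and Acta1 are also made by smooth and skeletal muscle, so markers of those cells were set beside them. The summed level of 8 smooth muscle markers was 1270.5 to 1381 TPM in the controls against 1225 to 1288 TPM in the mutants, but Des, itself one of the 38 genes, took 586 to 608 TPM of it. Without Des the sum was 673 to 775 TPM in the controls against 636 to 702 TPM in the mutants. Of the single markers, Cnn1 and Lmod1 are named after their values were seen. Cnn1, calponin 1, known from early cardiomyocytes too, held 258, 225, 237 and 242 TPM in the controls against 223, 202, 217 and 216 TPM in the mutants, so every mutant lay below every control (log2 fold change -0.16, -0.27 to -0.058, unadjusted p of 0.00642, adjusted p of 0.743, limma). Lmod1, at 1.74 to 3.34 TPM, was higher in every mutant than in any control (adjusted p of 0.780, limma). Tagln held 376 to 467 TPM, and Myh11, the defining smooth muscle myosin, reached at most 0.361 TPM. The part of smooth muscle cells in the Acta2 values was not tested. The sum of 13 skeletal muscle markers was 80.2 to 86.8 TPM in the controls against 78.7 to 91.6 TPM in the mutants. In it 8 genes stayed below 1 TPM in all libraries, among them the myogenic factors Myod1, Myog, Myf5, Myf6 and Pax7.

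The troponin complex switches the thin filament on and off. Tnnc1, the calcium sensor shared by the embryonic and adult heart, held 2026 to 2328 TPM over the 8 libraries, with a log2 fold change of -0.039 (-0.14 to 0.059). Tnni1, slow skeletal troponin I and the inhibitory subunit of the embryonic heart (chromosome 1, bases 135783033 to 135810989), stood at 1284, 1328, 1238 and 2160.4 TPM in the controls against 1543, 1637, 1473 and 1276 TPM in the mutants. Control replicate 4 stood far above the other 7 libraries. Its adult counterpart Tnni3 (chromosome 7, bases 4518305 to 4522718) held 850.1, 763, 829 and 712 TPM in the controls against 861, 788, 821 and 822 TPM in the mutants, and control replicate 4 was the lowest of the 8 there. On the log2 scale the fold change was 0.015 for Tnni1 (-0.36 to 0.39) and 0.065 for Tnni3 (-0.062 to 0.19). Without control replicate 4 that of Tnni1 was 0.20 and that of Tnni3 0.017.

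Troponin T ties the complex to tropomyosin. Tnnt2, the cardiac form (chromosome 1, bases 135836315 to 135852268), held 2772, 3864, 2718 and 2442 TPM in the controls against 2387, 2268, 3512 and 3770.3 TPM in the mutants. The values fell apart within each genotype, with control replicate 2 and mutant replicates 3 and 4 high and the other 5 libraries well below them. Tnnt1, the slow skeletal form (chromosome 7, bases 4504569 to 4515975), held 226, 241, 205 and 191 TPM in the controls against 219.5, 178, 217 and 153 TPM in the mutants, of which replicates 2 and 4 lay below every control. The log2 fold change was 0.0029 for Tnnt2 (-0.43 to 0.43) and -0.18 for Tnnt1 (-0.44 to 0.085, adjusted p of 0.884, limma). Without mutant replicate 4 that of Tnnt1 was -0.076. These genes sit in pairs on their chromosomes. Tnnt1 and Tnni3 lie 2329 bases apart on chromosome 7 with no listed gene between them, and Tnni1 and Tnnt2 lie 25325 bases apart on chromosome 1 with 1 listed gene between them.

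Tropomyosin lies along the actin filament and the tropomodulin family caps its pointed end. Tpm1, the main striated muscle tropomyosin of the heart, held 3231 to 3748 TPM, with a log2 fold change of -0.016 (-0.13 to 0.093). Tpm2, beta-tropomyosin, held 88.6, 95.9, 104 and 103 TPM in the controls against 93.2, 93.1, 91.9 and 87.4 TPM in the mutants. Control replicate 1 lay among the mutants and the other 3 controls above all 4 of them. Tmod1, the capping protein, stayed between 253 and 271 TPM, within 1.07-fold. Lmod2, leiomodin 2, which lengthens the filament, held 99.7, 96.7, 106 and 102 TPM in the controls against 98.1, 92.6, 99.7 and 90.8 TPM in the mutants, which reached lower but overlapped the controls. The log2 fold change was -0.095 for Tpm2 (unadjusted p of 0.103) and -0.084 for Lmod2 (unadjusted p of 0.0771), with an adjusted p of 0.851 and 0.841 in limma.

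Ratios within a library compare embryonic with adult or cardiac isoforms and do not depend on a scale factor applied to all genes of a library. For each of 5 pairs the log2 ratio was compared between genotypes by a two-sided exact permutation test over all 70 assignments of the libraries, whose smallest possible p is 0.0286. None of the 5 passed after adjustment over the 5 pairs, a count of 0, and none passed before it.

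The Myh7/Myh6 ratio was 3.51, 3.20, 3.71 and 2.92 in control replicates 1 to 4 and 3.39, 3.37, 3.39 and 2.94 in mutant replicates 1 to 4. Beta-myosin thus made up 76.8% ± 1.89 of the pair in the controls against 76.6% ± 1.28 in the mutants (SD over 4 libraries). The difference in log2 ratio was -0.021 (exact permutation p of 0.83, adjusted 0.971). Both genotypes carried the embryonic profile, with Myh7 above Myh6 in all 8 libraries, and all mutants lay inside the range of the controls.

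For troponin I, the Tnni1/Tnni3 ratio was 1.51, 1.74, 1.49 and 3.04 in control replicates 1 to 4 and 1.79, 2.08, 1.79 and 1.55 in mutant replicates 1 to 4. Tnni1 exceeded Tnni3 in every library. The log2 difference was -0.051 (exact permutation p of 0.971, adjusted 0.971). Its sign turned in 2 settings, without control replicate 4 and without mutant replicate 4. Without control replicate 4 the difference was 0.19 (adjusted p of 0.357, exact permutation).

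For troponin T, the Tnnt1/Tnnt2 ratio was 0.0815, 0.0623, 0.0755 and 0.0781 in control replicates 1 to 4 and 0.0920, 0.0783, 0.0617 and 0.0405 in mutant replicates 1 to 4, so the cardiac form dominated throughout. The mutants spread wider than the controls, with 1 above and 2 below all of them. The log2 difference was -0.18 (exact permutation p of 0.60, adjusted 0.971), and 0.045 without mutant replicate 4.

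Among the actins, the Acta2/Actc1 ratio was 0.0777, 0.0725, 0.0665 and 0.0759 in control replicates 1 to 4 and 0.0760, 0.0795, 0.0826 and 0.0783 in mutant replicates 1 to 4. Of the 5 ratios it came closest to separating the genotypes, with 3 of 4 mutants above every control and mutant replicate 1 inside the control range. The log2 difference was 0.11 (exact permutation p of 0.0571, adjusted 0.286) and it kept its sign in every setting tried. Quantile normalization, which is no single scale factor, lowered it to 0.058, and without control replicate 3 it was 0.069. The lowest adjusted p, 0.143, was reached without control replicate 1. The Acta1/Actc1 ratio was 0.0329, 0.0288, 0.0275 and 0.0315 in control replicates 1 to 4 and 0.0294, 0.0307, 0.0292 and 0.0295 in mutant replicates 1 to 4, and all mutants lay inside the control range (log2 difference of -0.021, exact permutation p of 0.771, adjusted 0.971). Actc1 made up 90.0% to 91.4% of the 3 actins over the 8 libraries.

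**Figure D3:**
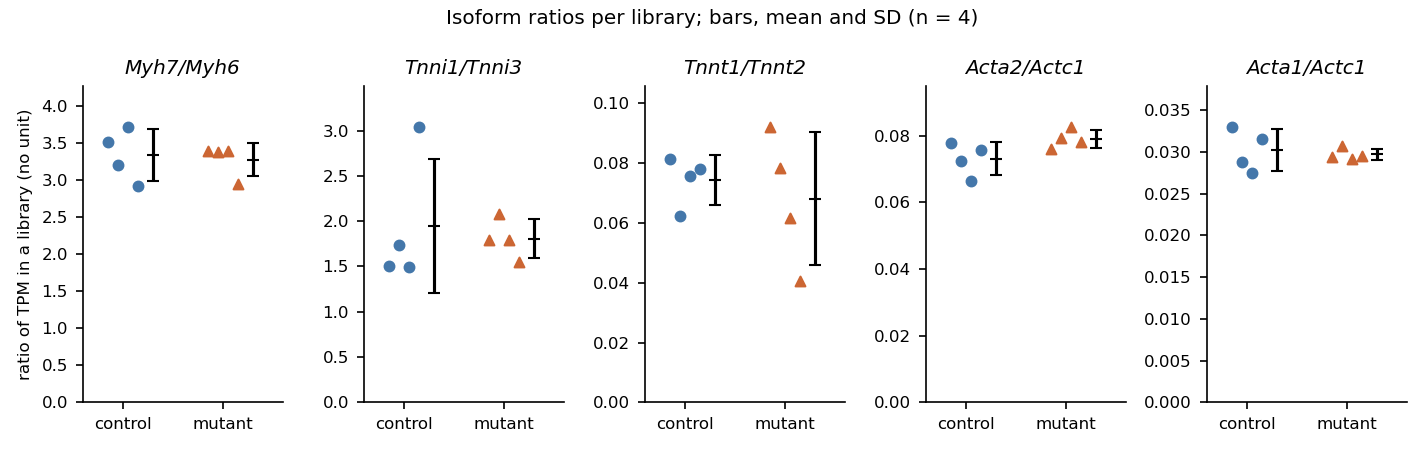
Ratio of TPM within each library for 5 isoform pairs, with circles for the 4 control and triangles for the 4 mutant libraries, and a bar for the mean and SD of each genotype on an axis from 0. All 5 pairs overlap between the genotypes, control replicate 4 stands alone at 3.04 for Tnni1/Tnni3, and 3 of 4 mutants lie above all controls for Acta2/Actc1.

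Giant scaffolds and the M-band set the length and order of the filaments. Ttn, titin, the elastic spring from Z-disc to M-band (chromosome 2, bases 76703980 to 76982557), held 99.0, 103, 91.5 and 108 TPM in the controls against 106, 105, 108 and 107 TPM in the mutants. The mutants were tightly grouped near the top of the control range, which control replicate 4 also reached. Nebl, nebulette, the short cardiac relative of nebulin (chromosome 2, bases 17342673 to 17734949), held 91.6, 92.5, 88.2 and 93.8 TPM in the controls against 95.5, 98.6, 94.1 and 96.8 TPM in the mutants, and here every mutant exceeded every control. The log2 fold change was 0.072 (0.00019 to 0.14), with an unadjusted p of 0.0495 and an adjusted p of 0.818 in limma. For Ttn the log2 fold change was 0.089 (-0.018 to 0.20, adjusted p of 0.843), and 0.046 without control replicate 3. Myom1, myomesin 1, which crosslinks thick filaments in the M-band, held 388 to 425 TPM with a log2 fold change of -0.040 (-0.11 to 0.035).

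The Z-disc group of 8 genes held both genes with the smallest unadjusted p among those that were lower. Tcap, telethonin, which caps the end of titin (chromosome 11, bases 98383811 to 98384953), stood at 146, 135, 141 and 131 TPM in the controls against 135, 108, 127 and 123 TPM in the mutants. Of the mutants, replicates 2, 3 and 4 lay below every control. Csrp3, muscle LIM protein, a Z-disc adaptor (chromosome 7, bases 48830398 to 48848051), held 893, 919.7, 904 and 871 TPM in the controls against 889.8, 831, 833 and 834 TPM in the mutants, again with replicates 2, 3 and 4 below every control and replicate 1 among them. On the log2 scale the fold change was -0.17 for Tcap (-0.32 to -0.019, unadjusted p of 0.0312, adjusted p of 0.809) and -0.083 for Csrp3 (-0.16 to -0.0059, unadjusted p of 0.0376, adjusted p of 0.809), both from limma. That of Tcap was -0.11 without mutant replicate 2.

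Myoz2, calsarcin 1, which tethers calcineurin to alpha-actinin (chromosome 3, bases 123006206 to 123035003), held 127, 119, 130.4 and 110.0 TPM in the controls against 123, 92.2, 114 and 96.0 TPM in the mutants. Mutant replicates 2 and 4 lay below every control and replicates 1 and 3 lay within the control range. Its log2 fold change of -0.20 was the lowest of the set (-0.41 to 0.0078, adjusted p of 0.825, limma). Pdlim5, a PDZ and LIM domain protein that binds alpha-actinin (chromosome 3, bases 142239585 to 142395719), had the highest, 0.26 (-0.11 to 0.62, adjusted p of 0.867). It held 203, 158, 128 and 141 TPM in the controls against 204, 199, 138 and 212 TPM in the mutants. The genotypes overlapped, with control replicate 1 at the level of the high mutants and mutant replicate 3 at the level of the low controls. Nexn, nexilin, an actin-binding Z-disc protein, held 274, 259.6, 289 and 278 TPM in the controls against 287, 274, 313 and 297 TPM in the mutants, which overlapped (log2 fold change 0.088, adjusted p of 0.843).

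The remaining Z-disc genes did not separate. Actn2, alpha-actinin 2, which crosslinks actin filaments from neighbouring sarcomeres, held 885 to 1027 TPM. Ldb3, also called Cypher or ZASP, held 239 to 272 TPM, and Synpo2l held 200.4 to 243 TPM. Their log2 fold changes were 0.0088, -0.00046 and -0.054, with adjusted p of at least 0.929 (limma).

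Outside the sarcomere proper, Des, desmin, the intermediate filament that links Z-discs to one another and to the membrane, was the least variable gene of the set. It held 605, 597, 597 and 594 TPM in the controls against 608, 589, 586 and 588 TPM in the mutants, all 8 values within 1.04-fold, and its 95% interval of -0.074 to 0.046 was the narrowest. Cryab, a small heat shock protein that protects desmin and actin, held 574 to 663 TPM (log2 fold change -0.019). Hspb2 overlaps it on the opposite strand at 191 TPM. Without a stated strand setting, reads from any exon bases that both genes share cannot be told apart. The same holds where Mhrt overlaps Myh7, Gm52092 Myh6, Cdc27 Myl4 and Tstd2 Tmod1 on the opposite strand. Overlaps were taken from the spans of the genes, and whether their exons share bases was not examined. Smpx, a small costamere protein of striated muscle, held 502 to 599 TPM (-0.058), and Xirp1, an actin-binding protein of the intercalated disc, held 90.3 to 111 TPM (0.023).

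Among genes linked to stretch and turnover, Ankrd1, a stress-responsive titin partner that also moves to the nucleus, held 679 to 842 TPM, with a log2 fold change of 0.034 (-0.14 to 0.21). Trim63 and Trim55, the ubiquitin ligases MuRF1 and MuRF2 that mark sarcomere proteins for degradation, held 66.2 to 78.5 TPM and 287 to 315 TPM. Their log2 fold changes were 0.056 (-0.065 to 0.18) and -0.018 (-0.10 to 0.066). None of the 3 separated the genotypes.

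The genes differed widely in their spread between libraries of the same genotype. In 4 of 35 genes, Tnni1, Tnnt2, Pdlim5 and Tnnt1, the highest of the 8 values was more than 1.5 times the lowest. The SD within genotypes, on the log2(TPM + 1) scale, was 0.334 for Tnnt2, 0.289 for Tnni1, 0.285 for Pdlim5 and 0.204 for Tnnt1, against a median of 0.0756 over the 35 and 0.0641 over the 2982 genes of at least 50 TPM. Of those genes 1.44% were more variable than Tnnt2 and 2.15% more than Tnni1. The 4 variable genes have 12 (Tnnt2), 7 (Tnni1), 12 (Pdlim5) and 10 (Tnnt1) protein-coding transcripts in GENCODE M21. Des, Tnnc1, Trim55, Lmod2, Tcap and Myoz2 have 1 each, with SDs of 0.0191, 0.0584, 0.0516, 0.0595, 0.109 and 0.158. Tpm1 and Ttn, with 16 and 21, had SDs of 0.0670 and 0.0711. Whether the number of transcripts plays a part in the spread was not tested.

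**Figure D4:**
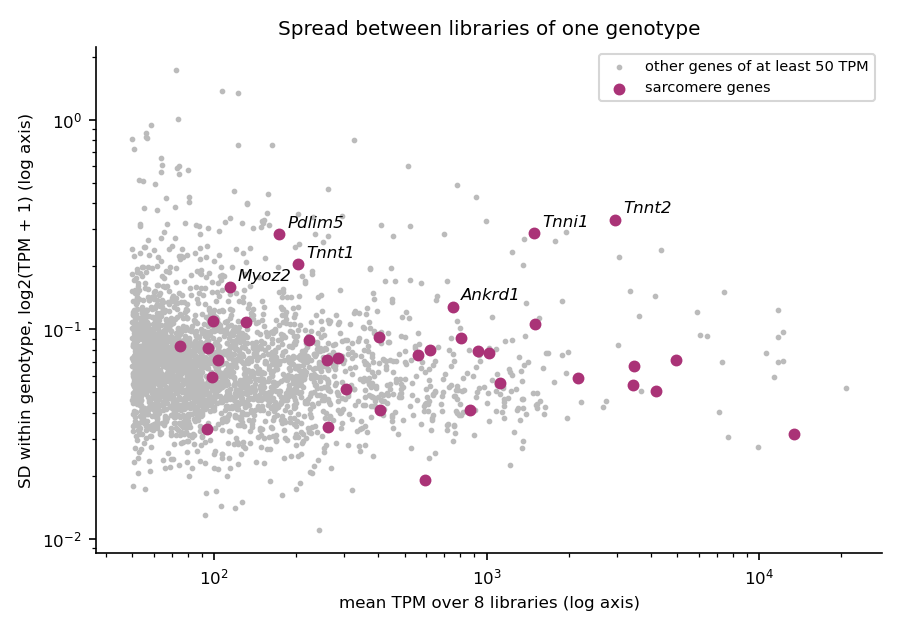
SD between libraries of the same genotype on the log2(TPM + 1) scale against mean TPM, both on log axes, for 2982 genes of at least 50 TPM (grey) and the 35 tested sarcomere genes (coloured). Tnnt2, Tnni1, Pdlim5, Tnnt1, Myoz2 and Ankrd1 are named, and Tnnt2 at 0.334 and Tnni1 at 0.289 stand above most genes of their abundance.

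Libraries also shifted many of these genes together. Mutant replicate 2 was the lowest of the 8 libraries for 13 of 35 genes and control replicate 3 for 9, while control replicate 1 and mutant replicate 1 were the lowest for 0 and the highest for 8 each. The median deviation of the 35 genes from their own means was -0.049 in mutant replicate 2 and 0.046 in mutant replicate 1. For all genes of at least 50 TPM it was -0.019 and 0.044 in the same libraries. The sum of listed TPM was also lowest in mutant replicate 2 and highest in mutant replicate 1. Mutant replicate 1 is the library that lay among the controls for Mybpc3, Tcap and Csrp3, and the part of these shifts in those values was not tested.

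Promoter sequence was examined for what the genes share beside their function. RefSeq windows on GRCm38.p6 were matched for 31 of the 38 genes, with the start nearest to that in the expression table, and the 250 bases before the start were searched on both strands. A CArG box, the site of serum response factor, was found in 5 of 31 windows, 16.1%, beside 1.47% of all 32851 windows in the table. Those genes were Actc1, Acta1, Myl3, Ldb3 and Myom1. The windows of Ldb3 and Myom1 lie 1633 and 16225 bases from the starts in the expression table, and those of the other 3 lie at the starts. In all, 6 of the 31 windows lay more than 1000 bases from the start in the table, and the CArG box was in 3 and the MEF2 site in 5 of the remaining 25. A MEF2 site was found in 5, Ttn, Mybpc3, Xirp2, Myoz2 and Synpo2l, or 16.1%, beside 2.92% of all windows. The core TGATGNAA of the element bound by ATF4 with its partners was found in 1 window, that of Tnnt1, or 3.23%, beside 3.45% of all windows. The letters TATAAA were found in 3, or 9.68%, beside 12.4%. A MEF2 match and a TATAAA match can share letters. A match is a description of the letters and not a bound site.

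The 120 bases before the start are shown for 3 genes with a CArG box and 2 with a MEF2 site, which are in capitals, each 5′ to 3′ on the strand of its gene. Actc1 is at chr2:114052876-114052995, Acta1 at chr8:123894776-123894895 and Myoz2 at chr3:123034988-123035107, all on the minus strand, and Myl3 is at chr9:110763558-110763677 and Mybpc3 at chr2:91118024-91118143, both on the plus strand of GRCm38.p6. The RefSeq starts of Mybpc3 and Myoz2 lie slightly inside the genes as the expression table gives them.
Actc1: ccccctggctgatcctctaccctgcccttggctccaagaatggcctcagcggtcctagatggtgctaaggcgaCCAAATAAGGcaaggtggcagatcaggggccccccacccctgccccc
Acta1: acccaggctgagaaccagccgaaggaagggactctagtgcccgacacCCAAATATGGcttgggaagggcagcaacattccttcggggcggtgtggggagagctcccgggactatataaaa
Myl3: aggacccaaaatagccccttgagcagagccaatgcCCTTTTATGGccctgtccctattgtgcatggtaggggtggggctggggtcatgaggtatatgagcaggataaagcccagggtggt
Mybpc3: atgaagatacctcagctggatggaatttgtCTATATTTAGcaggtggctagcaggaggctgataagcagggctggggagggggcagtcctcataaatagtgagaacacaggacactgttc
Myoz2: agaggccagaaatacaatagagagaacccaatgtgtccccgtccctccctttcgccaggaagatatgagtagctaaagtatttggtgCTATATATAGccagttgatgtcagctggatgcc

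The 3 genes with a printed CArG box differed widely in level. Actc1 averaged 13444 TPM, Myl3 3444 TPM and Acta1 402 TPM, and their log2 fold changes were -0.014, -0.020 and -0.034. The other genes with a CArG box, Ldb3 and Myom1, had log2 fold changes of -0.00046 and -0.040. The printed pair with a MEF2 site, Mybpc3 and Myoz2, had log2 fold changes of -0.090 and -0.20, with adjusted p of 0.821 and 0.825 (limma). Of the other genes with a MEF2 site, Ttn had a log2 fold change of 0.089 and Synpo2l of -0.054, and Xirp2 was too low to be tested.

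The Tnnt1 window is shown in full, 250 bases on the minus strand at chr7:4515976-4516225, with the TGATGNAA match in capitals. Tnnt1 had a log2 fold change of -0.18 (-0.44 to 0.085, adjusted p of 0.884, limma), with 2 of 4 mutants below every control. Without mutant replicate 4 the change was -0.076. The share of windows with the match, 3.23%, lay near the 3.45% of all windows, and binding of ATF4 was not tested.
Tnnt1: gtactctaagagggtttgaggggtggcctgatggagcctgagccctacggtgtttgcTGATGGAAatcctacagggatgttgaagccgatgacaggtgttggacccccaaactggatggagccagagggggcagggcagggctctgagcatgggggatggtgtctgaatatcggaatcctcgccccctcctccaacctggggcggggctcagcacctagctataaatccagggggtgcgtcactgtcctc

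Other genes of the sarcomere and costamere were examined as 5 lists with 121 genes, of which 105 were tested. None had an adjusted p below 0.05, a count of 0, while 7 were higher and 2 lower at an unadjusted p below 0.05, or 8.57% beside 6.1% of all genes. The genotypes stood apart for 3 of the 105, Mybphl, Cap2 and Lmod1, all higher in the mutants, or 2.86% beside 3.68% of all genes tested. Lmod1, a leiomodin of smooth muscle named after its values were seen, was low at 2.27, 2.21, 1.74 and 2.89 TPM in the controls against 2.97, 3.29, 3.11 and 3.34 TPM in the mutants. The list of other myosins and thick filament genes held 3 of the 7 that were higher, among 13 tested, or 23.1%. That share was 10.5% for actins and thin filament and 0% for the Z-disc. For costamere and intermediate filament it was 3.03%, and for assembly and transcription 5%. Of all genes, 2.65% were higher at that p. Mybphl, a relative of myosin-binding protein C known from the atria, had the smallest unadjusted p of the lists. It held 35.1, 32.4, 33.0 and 35.3 TPM in the controls against 40.4, 47.2, 40.8 and 43.8 TPM in the mutants, so every mutant exceeded every control, with a log2 fold change of 0.33 (0.21 to 0.46, unadjusted p of 2.00e-04, adjusted p of 0.311, limma).

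The other pair in the list of myosins and thick filament genes, Myl1 and Myl7, is named after its values were seen. Myl7, the atrial regulatory light chain, held 3475, 3197, 3186 and 3389.9 TPM in the controls against 3565, 3849, 3441 and 3731 TPM in the mutants. Myl1, an essential light chain of fast skeletal muscle, held 284, 323, 263 and 304 TPM in the controls against 316, 356, 329.8 and 353 TPM in the mutants. Both sets of values overlapped between the genotypes, and their log2 fold changes were 0.14 and 0.21 (adjusted p of 0.783 and 0.780, limma). Myl4, which is also atrial in the adult, had a log2 fold change of -0.018, and Myl2, the ventricular light chain, had a log2 fold change of -0.050. Atrial markers were set beside these values. The summed level of 8 was 5825 to 6915 TPM in the controls against 6681 to 7371 TPM in the mutants. Most of it was Nppa and Myl7 itself, so the sum is no separate measure beside Myl7. Nppa held 2283 to 3272 TPM in the controls against 2666 to 3762 TPM in the mutants, and Gja5 121 to 153 TPM against 127 to 147 TPM. Stard10, Nr2f1, Nr2f2 and Kcna5 held 2.37 to 17.3 TPM, and each overlapped between the genotypes. The atrial gene Sln was below 1 TPM in every library. The part of atrial tissue in these values was not tested.

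**Figure D5:**
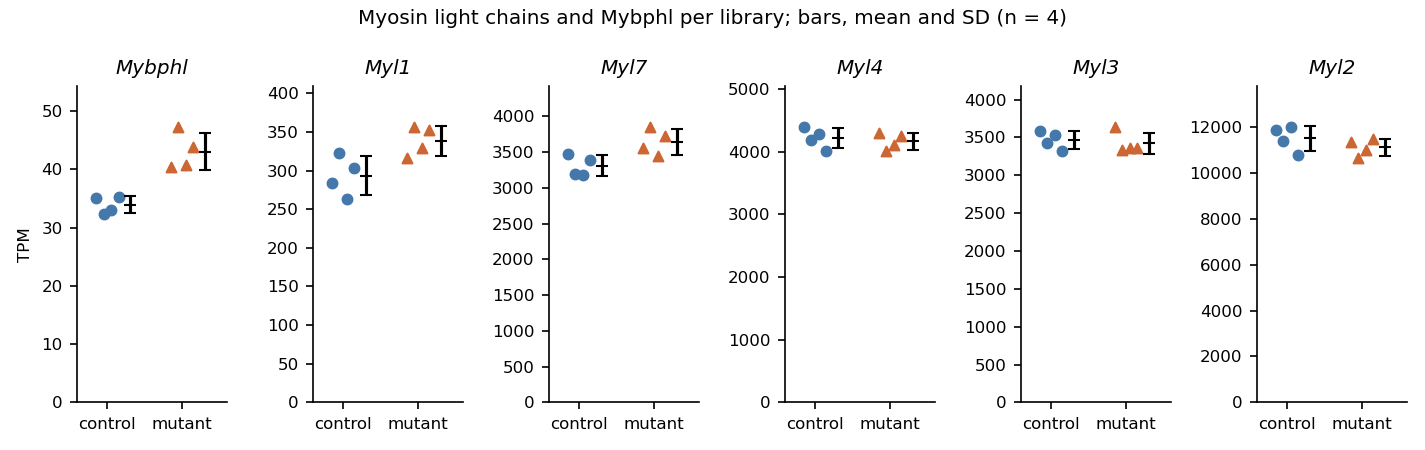
TPM per library of Mybphl and 5 myosin light chain genes, with circles for the 4 control and triangles for the 4 mutant libraries, and a bar for the mean and SD on an axis from 0. Mybphl separates the genotypes without overlap, and Myl1 and Myl7 lie higher in most mutants, while Myl4, Myl3 and Myl2 overlap.

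The leading genes of the other 4 lists were Cap2, Fhl2, Nrap and Nkx2-5. Cap2, an actin-turnover factor, was measured at 153 ± 6.17 TPM over the controls against 166 ± 2.98 TPM over the mutants (SD, n = 4), with every mutant above every control (log2 fold change 0.12, adjusted p of 0.748, limma). Fhl2, a LIM protein that binds titin, was measured at 158 ± 5.68 TPM over the controls against 147 ± 6.18 TPM over the mutants (-0.11, adjusted p of 0.800). Nrap, a scaffold of myofibril assembly at the membrane, was measured at 46.1 ± 3.21 TPM over the controls against 37.9 ± 4.88 TPM over the mutants (-0.28, adjusted p of 0.780). Nkx2-5, a cardiac transcription factor, was measured at 126 ± 4.21 TPM over the controls against 137 ± 5.40 TPM over the mutants (0.11, adjusted p of 0.780).

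The median log2 fold change was 0.023 over 13 myosin and thick filament genes and 0.012 over 19 actin and thin filament genes. It was -0.0053 over 20 Z-disc genes, -0.0098 over 33 costamere and intermediate filament genes and 0.024 over 20 genes of assembly and transcription. The median over all genes tested was -0.0033.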

How the data were processed

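Values are TPM deposited by the authors, 1 column per library in 1 table. The submitters' processing notes name FastQC, Trim Galore 0.6.7, HISAT2 2.2.1, StringTie 2.2.1, featureCounts and DESeq2 and the builds GRCm38 and mm10, with no role or order. The annotation, the strand setting and the treatment of reads that map to several genes are not given in the sources used here. A design text names a stranded poly(A) kit and a protocol label ribosomal RNA depletion.

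TPM were analysed as log2(TPM + 1), so fold changes understate those of low genes. The 15545 genes that reached 1 TPM in 4 or more libraries were fitted in limma 3.58.1 (R 4.3.3) with variances that follow mean expression and no covariate. Two-sided p-values were adjusted by Benjamini-Hochberg over all genes. On simulated data with 15545 genes for this comparison, a log2 change of 0.2 was recovered for 0% of the changed genes, one of 0.3 for 26.5%, one of 0.5 for 70% and one of 1 for 92.5%. The changed genes were drawn from all 15545 and not from the set. Ratios were compared by exact permutation in Python 3.11.15 (numpy 2.4.6, pandas 2.3.3), coding regions were aligned with Biopython 1.88, and plots were drawn with matplotlib 3.10.9. Sequences are from RefSeq (GRCm38.p6) and GENCODE M21 (GRCm38).

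The genes, lists and tests were chosen with earlier results of these data known. Genes named with values are those of the 5 ratios, the 3 most abundant, up to 6 per direction with the smallest unadjusted p, and the leading gene of each further list. Outside this rule, values per library were also given for Des, Cnn1, Lmod1, Myl1, Myl7, Mhrt, Ablim1 and Sorbs2. Atf4 was given as the targeted gene. The 9 other settings changed the pseudocount (0.1), dropped the filter or set it at 5 TPM, rescaled the libraries in 3 ways, dropped the variance trend, weighted the libraries, or added a block for the replicate number. Each library was also left out.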

Additional observations from a re-analysis of the deposited data

Results flagged for a closer look

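Among 46 genes and ratios, the 4 libraries of each genotype gave 92 sets of 4 values, each searched for a value set apart by a gap that filled most of the spread of its set. There were 8, where chance at the 5% rate of the test gives 4.6, and the tests share libraries. Tnni1 was high in control replicate 4, at 2160.4 against 1238 to 1328 TPM in the other controls, and the Tnni1/Tnni3 ratio was high there too, at 3.04 against 1.49 to 1.74. Tpm1 was high in control replicate 1, at 3748 against 3397 to 3448 TPM. In mutant replicate 1, Myl3 was high at 3634 against 3338 to 3355 TPM in the other mutants, Csrp3 at 889.8 against 831 to 834 TPM and Des at 608 against 586 to 589 TPM. Cryab was low in mutant replicate 2, at 574 against 625 to 634 TPM. The Myh7/Myh6 ratio was low in mutant replicate 4, at 2.94 against 3.37 to 3.39. Without mutant replicate 1 the log2 fold change of Csrp3 was -0.11, and without mutant replicate 4 the log2 difference of the Myh7/Myh6 ratio was 0.029.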

How the results depend on the processing

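No gene of the set and none of the further lists passed the adjusted threshold in any of the 9 other settings or the 8 fits that each left out 1 library, a count of 0 each time. The 2 genes lower and 1 higher at an unadjusted p below 0.05 became 1 and 2 with no filter, 4 and 2 with median-of-ratios scaling, 4 and 0 with quantile normalization, rescaling or weights per library, and 0 and 0 with no variance trend. With a filter at 5 TPM the number higher was 0. Leaving out 1 library gave 0 to 4 lower and 0 to 3 higher. The causes were not tested. With 1 library left out the log2 differences ran from -0.084 to 0.032 for Myh7/Myh6, -0.16 to 0.19 for Tnni1/Tnni3, -0.35 to 0.045 for Tnnt1/Tnnt2, -0.065 to 0.023 for Acta1/Actc1 and 0.069 to 0.14 for Acta2/Actc1, the only one of the 5 that kept its sign. The log2 fold changes ran from -0.059 to 0.034 for Myh6, -0.065 to 0.20 for Tnni1, -0.12 to 0.14 for Tnnt2, -0.081 to 0.014 for Acta1, -0.031 to 0.00039 for Actc1 and -0.042 to 0.0011 for Myl4. They kept their sign but moved over 1.5 times for Myh7 (-0.074 to -0.0057), Tnni3 (0.017 to 0.10), Tnnt1 (-0.25 to -0.076), Acta2 (0.053 to 0.14), Tcap (-0.21 to -0.11), Tpm2 (-0.14 to -0.063), Ttn (0.046 to 0.12), Nexn (0.055 to 0.12) and Pdlim5 (0.17 to 0.40). Quantile normalization took Acta2/Actc1 to 0.058 and Acta1/Actc1 to -0.065. Actc1 was 0.027 with quantile normalization, and Tnnt2 was -0.0023 after rescaling and -0.035 with weights per library. Same-numbered libraries of the 2 genotypes did not deviate together (correlations of -0.082 to 0.035, and only replicate 2 correlated most with its own number). With the replicate number as a block 3 genes were lower and 2 higher at an unadjusted p below 0.05, and 0 passed after adjustment. Read depth is unknown.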

Other observations

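Some genes next to the set were chosen after their values were seen and are given as values only. Mhrt, a noncoding RNA transcribed from the opposite strand of Myh7, held 35.8, 58.7, 24.8 and 25.8 TPM in the controls against 24.6, 28.5, 21.0 and 42.5 TPM in the mutants, with an SD larger than that of Myh7 in relation to its mean (log2 fold change -0.27, adjusted p of 0.930, limma). Without a stated strand setting its reads cannot be told apart from those of Myh7 where they overlap. Ablim1, an actin-binding LIM protein, spread several-fold within both genotypes, with 6.69, 43.2, 6.39 and 7.26 TPM in the controls against 7.43, 40.1, 39.5 and 24.3 TPM in the mutants. Sorbs2, a costamere adaptor, held 84.1, 100.4, 57.2 and 119.8 TPM in the controls against 85.5, 78.0, 32.8 and 34.9 TPM in the mutants, of which replicates 3 and 4 were below every control. The log2 fold changes of 1.02 and -0.72 were the highest and the lowest of the further lists and neither passed the threshold (adjusted p of 0.873 and 0.840, limma).

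Fast skeletal isoforms were not all silent. Tnni2, fast skeletal troponin I, held 36.5 to 46.1 TPM over the 8 libraries and Mylpf, the fast regulatory light chain, 16.6 to 31.8 TPM. Tnnt3 held 1.41 to 2.25 TPM, and Tnnc2, Myh3 and Myh8 stayed below 1 TPM.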
